A study of Mus musculus with 96 samples.

Results

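The effect of a high-fat diet on the liver was measured in adult male C57BL/6J mice whose mothers had lived under a shifted light schedule while pregnant. All 12 liver libraries of high-fat offspring of shifted mothers were set against all 12 of low-fat offspring of shifted mothers, with 3 libraries per arm at each of 4 times of day, and the difference was averaged over those times. These 24 libraries are part of 96 from one study. During pregnancy only, the light phase of the shifted mothers was advanced by 8 h every 5 days, and control mothers stayed on 12 h of light and 12 h of dark. Both diets were fed ad libitum to the male offspring from 4 weeks of age for 12 weeks. The 12 high-fat and 12 low-fat libraries of offspring of control mothers serve here as the side-by-side comparison. Tissue was collected every 6 h, at ZT0, ZT6, ZT12 and ZT18, where ZT counts the hours from lights on. The fat content of the diets, the lighting of the offspring and whether libraries of a group come from separate animals or litters are not stated, so the p-values measure the spread between libraries.

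Liver turns fatty acids in opposing directions. In oxidation, acyl groups enter mitochondria on carnitine, or are shortened in peroxisomes, and are broken down to acetyl-CoA, which in part leaves the liver as ketone bodies. The nuclear receptor PPAR-alpha, which binds fatty acids, switches on many genes of these steps. In synthesis, sugar carbon is built into new fatty acids under the transcription factors SREBP-1c and ChREBP, which respond to insulin and to sugar. Fat that is neither burned nor exported is stored in lipid droplets, whose coat proteins are in part induced by PPAR-gamma. Feeding time and the circadian clock give most of these genes a daily rhythm in mouse liver.

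Values are FPKM, fragment counts divided by transcript length and by library size, as deposited by the authors, and were scaled here between libraries. Fold changes are on the log2(FPKM + 1) scale, which understates the change of low genes, and are high-fat minus low-fat. The depth of each library is unknown because the files hold no counts. Within the 4 arms, the median correlation of a library with the other libraries of its arm was 0.976 to 0.985 in shifted high-fat, 0.936 to 0.975 in shifted low-fat, 0.886 to 0.982 in control high-fat and 0.942 to 0.98 in control low-fat offspring. It was under 0.95 in 5 of the 48 offspring libraries, among them 2 shifted low-fat libraries, replicate 1 at ZT0 and replicate 1 at ZT6. The 2 closest pairs of libraries were replicates 1 and 2 of shifted low-fat ZT12 (correlation 0.99608) and replicates 2 and 3 of control low-fat ZT6 (0.996). Whether the libraries of such a pair come from 1 animal was not tested, and each is counted here as a separate replicate. Hepatocyte markers dominated the libraries, with a summed level of 46900 to 77700 FPKM in the high-fat arm and 55000 to 132000 FPKM in the low-fat arm, as the liver label says. The 4 arms were deposited as 4 separate tables, so a difference between arms and a difference between tables cannot be told apart.

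Aldh3a2 and Plin2 rose in the high-fat arm and stand here for the fatty acid oxidation and lipid droplet groups. Their promoters are shown because both hold an E-box, CACGTG, the sequence that the clock factors CLOCK and BMAL1 and other factors of their family can bind. The sequences run from 250 bases before to 50 bases after the RefSeq start of each gene, from the GRCm38.p6 assembly, which is the mm10 build of the files. The E-box is in capitals. The Aldh3a2 promoter lies at chr11:61267137-61267436 on the minus strand, and the Plin2 promoter at chr4:86670010-86670309, also on the minus strand. Gene spans given with the results are from GENCODE M21, whose outermost start of Aldh3a2 lies upstream of the RefSeq start, so that window falls inside the span.
Aldh3a2: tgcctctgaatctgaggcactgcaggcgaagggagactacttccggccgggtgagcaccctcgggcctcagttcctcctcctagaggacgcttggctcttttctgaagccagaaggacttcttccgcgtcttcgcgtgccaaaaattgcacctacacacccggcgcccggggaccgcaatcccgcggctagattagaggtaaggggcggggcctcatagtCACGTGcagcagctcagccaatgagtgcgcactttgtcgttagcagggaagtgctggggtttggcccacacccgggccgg
Plin2: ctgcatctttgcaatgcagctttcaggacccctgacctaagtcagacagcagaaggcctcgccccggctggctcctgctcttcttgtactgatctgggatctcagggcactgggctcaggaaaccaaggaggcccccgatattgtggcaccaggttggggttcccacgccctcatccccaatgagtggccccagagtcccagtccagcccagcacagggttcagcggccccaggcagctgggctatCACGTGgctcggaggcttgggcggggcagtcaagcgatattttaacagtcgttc

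CACGTG was found in 8.09% of 27025 mouse genes with a RefSeq promoter window. It was in 3 of 30 PPAR-alpha target genes with a window (10%; Acot4, Fgf21 and Aldh3a2), 3 of 19 lipid droplet genes (15.8%; Plin2, Lipe and Mgll), 2 of 17 fatty acid synthesis genes (11.8%; Mlxipl and Khk) and 4 of 17 cholesterol synthesis genes (23.5%). One exact form of the direct repeat that PPAR and RXR bind, 2 copies of AGGTCA with 1 base between them, was searched on both strands. It was in 13 of all windows (0.0481%) and in 0 of the 30 PPAR-alpha target genes. A string this rare could hardly be met in 30 windows, so the 0 does not show that these genes lack such sites. The sterol element TCACNCCAC, also searched on both strands, was in 1.44% of all windows, in 2 of 30 PPAR-alpha target genes (6.67%; Ehhadh and Ucp2), in 0 of 19 lipid droplet genes, and in 1 of 17 genes (5.88%) both of fatty acid synthesis, where it was Mlxipl, and of cholesterol synthesis. These are matches of letters within the windows only.

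High-fat feeding was accompanied by rises among fatty acid oxidation and lipid droplet mRNAs and by falls among fatty acid synthesis, ribosomal protein and respiratory chain mRNAs. Of 10860 genes tested, 2518 passed the test (23.2%; limma with Benjamini-Hochberg adjusted p under 0.05), of which 1250 rose (11.5%) and 1268 fell (11.7%). The counts of rises and falls in the gene groups below stand beside these shares. The typical change was small, with a median of 1.29-fold among the genes called, and 53 genes rose and 32 fell by more than 2-fold. The split between rises and falls depended on scaling: 1665 rose and 737 fell in the values as deposited, and 946 rose and 1505 fell with upper quartile scaling. Without the 5 libraries of low correlation 3667 genes were called, without ZT6 2818, and with each library's trends over transcript length and GC content removed 2017. The last setting kept 1539 of the 2431 calls it could test (63.3%).

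The change with the smallest adjusted p was in Fabp5, which encodes an intracellular fatty acid binding protein (chromosome 3, 10012548 to 10016607, mm10). Its level in high-fat offspring was 4.59 FPKM in the lowest library, 8.63 in the median and 20.5 in the highest, against 59.5, 285 and 746 FPKM in low-fat offspring. Every high-fat library lay below every low-fat library. The log2 difference was -4.75 (SE 0.472, adjusted p = 5.37e-08). Fabp5 averaged 8.06, 15.3, 6.76 and 7.56 FPKM in high-fat livers at ZT0, ZT6, ZT12 and ZT18, against 457, 102, 226 and 500 FPKM in low-fat livers, so the high-fat mean was the lower one at each time.

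Pdzk1ip1, a small membrane protein gene (chromosome 4, 115088708 to 115093899), had 0.887, 1.26 and 4.34 FPKM in the lowest, median and highest high-fat library, against 5, 14.2 and 27.6 FPKM in low-fat libraries. The arms did not overlap, and the log2 difference was -2.44 (SE 0.252, adjusted p = 5.78e-08). Gm2a, whose lysosomal product helps degrade the ganglioside GM2, had 11.2, 13.4 and 16.1 FPKM in high-fat libraries, against 18.6, 25.2 and 32.7 FPKM in low-fat libraries. Here too the arms were separate, with a log2 difference of -0.81 (adjusted p = 2e-07). Aatk, a protein kinase gene, lay on the other side, with 0.975, 2.68 and 4.83 FPKM in high-fat libraries, against 0.118, 0.324 and 0.77 FPKM in low-fat libraries (log2 difference 1.38, adjusted p = 2.94e-07). Fam107b had 15.9, 20.7 and 26.7 FPKM in high-fat libraries and 6.08, 11.8 and 19.2 FPKM in low-fat libraries (log2 difference 0.86), and its arms overlapped.

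**Figure D1:**
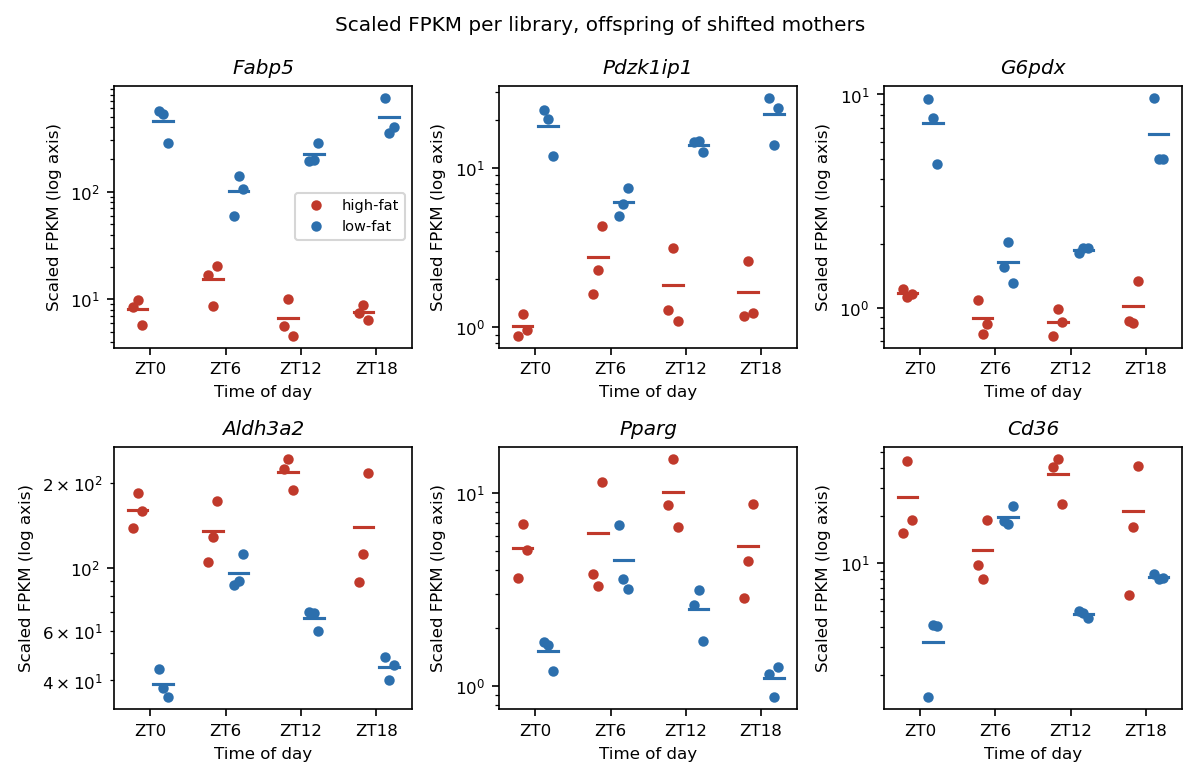
Scaled FPKM of Fabp5, Pdzk1ip1, G6pdx, Aldh3a2, Pparg and Cd36 on a log axis against time of day, 1 point per library, with high-fat livers in red on the left and low-fat livers in blue on the right of each time, and bars at the means of 3 libraries, all from offspring of shifted mothers. Fabp5 and Pdzk1ip1 were lower in all 12 high-fat libraries than in any low-fat library, while Cd36 averaged 12.2 FPKM in high-fat and 19.7 FPKM in low-fat livers at ZT6 and was higher in high-fat livers at the other 3 times.

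In 23 genes the 12 high-fat libraries lay wholly above or wholly below the 12 low-fat ones (0.212% of the genes tested, 0.101% above and 0.11% below). The 11 above were Aatk, Agxt2, Dopey2, Hist1h2bh, Hist1h2bp, Lamb3, Sema5b, Slc10a2, Spata5l1, Tpm2 and Ugt3a1. Slc10a2, the sodium-dependent bile acid transporter known from ileum and bile ducts, had 8.09 to 13.6 FPKM in high-fat livers and 1.6 to 7.72 FPKM in low-fat livers. Agxt2, a mitochondrial aminotransferase, had 64.1 to 88 FPKM in high-fat livers and 30.5 to 61.9 FPKM in low-fat livers. The histone genes Hist1h2bh and Hist1h2bp have near-identical copies, so their levels depend on how reads were divided among them. The 12 below were 4930452B06Rik, Ccdc69, Fabp5, Galns, Gm2a, Hsbp1l1, Mbd2, Pdzk1ip1, Pnpla5, Reck, Tmem159 and Tram1. Pnpla5, a lipid droplet lipase gene, had at most 0.153 FPKM in high-fat livers and 0.169 to 11.1 FPKM in low-fat livers. Galns, which like Gm2a encodes a lysosomal protein, had 0.92 to 1.38 FPKM in high-fat livers and 1.45 to 3.37 FPKM in low-fat livers.

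Among the largest rises, Cfd, the gene of complement factor D or adipsin (chromosome 10, 79890853 to 79892655), had 0.408, 10.7 and 39 FPKM in the lowest, median and highest high-fat library. In low-fat livers Cfd had 0, 0.0526 and 0.442 FPKM, so the 2 arms met only at their edges. The log2 difference was 3.08 (SE 0.412, adjusted p = 2.1e-06). Cfd is also an adipocyte marker. Of the other adipocyte markers Adipoq, Lep, Retn and Plin1 had medians under 0.1 FPKM, and Adrb3, Fabp4 and Lipe did not pass the test. The summed level of the 8 adipocyte markers, Cfd included, was 16.2 to 57.6 FPKM in high-fat and 11.1 to 41.9 FPKM in low-fat livers. Cyp2b9, a P450 of female-predominant expression in mouse liver, rose by 1.82 on the log2 scale, with medians of 2.93 FPKM in high-fat and 0.0912 FPKM in low-fat livers. Mia2, involved in export of large cargo from the endoplasmic reticulum, rose by 1.65, and Acss3, a mitochondrial short-chain acyl-CoA synthetase, by 1.53. Scand1 rose by 1.53, with 4.64, 8.59 and 11.9 FPKM in high-fat livers and 0.386, 1.96 and 9.24 FPKM in low-fat livers. Tgoln2 and the pseudogene Apoo-ps also rose (by 1.51 and 1.61), but some of their libraries were listed at nearly 0 beside others of several FPKM, so their estimates are uncertain, and so is that of the pseudogene Atp6v0c-ps2, which fell by 2.37.

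Among the other large falls, the trefoil peptide gene Tff3 had 3.1, 11.8 and 71.2 FPKM in high-fat livers, against 17.1, 96.2 and 389 FPKM in low-fat livers (log2 difference -2.50, adjusted p = 0.000143). The arms overlapped, because Tff3 averaged 41.8 FPKM in high-fat and 24.5 FPKM in low-fat livers at ZT6. Chrna4, a nicotinic acetylcholine receptor subunit, fell by 1.85, with medians of 0.517 FPKM in high-fat and 4.5 FPKM in low-fat livers. Rgs16, a regulator of G-protein signalling, fell by 1.62, and Cib3, a calcium-binding protein gene, by 1.52. The leptin receptor gene Lepr fell by 1.36 (adjusted p = 4.7e-07), with 0.144, 0.342 and 0.686 FPKM in high-fat livers and 0.373, 2.82 and 8.79 FPKM in low-fat livers.

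Genes of fatty acid oxidation and ketogenesis that PPAR-alpha is known to regulate were higher in high-fat offspring. Of 41 tested, 22 rose, none fell and 19 did not pass. The median log2 difference of the 41 was 0.393, against 0.00981 over all genes, and 39 were above 0. The count was 24 with length and GC trends removed and 27 without ZT6. Leaving out 1 library at a time gave 18 to 22.

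Aldh3a2, the fatty aldehyde dehydrogenase (chromosome 11, 61223417 to 61267464), had the smallest adjusted p of the group. It had 89.2, 166 and 243 FPKM in the lowest, median and highest high-fat library, against 34.9, 54.3 and 112 FPKM in low-fat libraries. All 12 high-fat libraries lay above the low-fat mean of their own time, although the arms overlapped, and the log2 difference was 1.43 (SE 0.149, adjusted p = 5.78e-08). Acadm, the medium-chain acyl-CoA dehydrogenase of mitochondria, had 112, 142 and 199 FPKM in high-fat livers, against 59, 102 and 159 FPKM in low-fat livers (log2 difference 0.63, adjusted p = 4.44e-06). Pex11a, which promotes peroxisome division, had 17.8, 32.6 and 84.3 FPKM in high-fat livers, against 4.65, 15.4 and 24.4 FPKM in low-fat livers (log2 difference 1.35, adjusted p = 1.71e-05).

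The rises covered several steps of the pathway. In carnitine transport, Slc22a5, the cell membrane carnitine transporter, rose by 0.67, Cpt1a, which loads acyl groups onto carnitine, by 0.56, the carrier gene Slc25a20 by 0.39, and Cpt2, which unloads them in the matrix, by 0.31. In peroxisomes, Hsd17b4, the bifunctional enzyme, rose by 0.52, the thiolase genes Acaa1a and Acaa1b by 0.54 and 0.91, and the carnitine transferases Crat and Crot by 0.77 and 0.82. In ketogenesis, Bdh1, which interconverts the ketone bodies, rose by 0.30. The acyl-CoA thioesterase genes Acot3 and Acot4 rose by 1.24 and 0.91, and Vnn1, the pantetheinase, by 1.21. Cyp4a14, an omega-hydroxylase and a widely used PPAR-alpha target, had medians of 71.7 FPKM in high-fat and 11.1 FPKM in low-fat livers, but 8 of 12 libraries lay on the side of the rise. Its log2 difference of 1.84 had an adjusted p of 0.0294, which 4 of the 24 leave-one-out fits lost, and Cyp4a14 has close relatives that share sequence. Among the 19 that did not pass were Cyp4a10 (0.93), Fgf21 (0.25), Pdk4 (0.018), Angptl4 (0.34), Ehhadh (0.25) and the trifunctional protein genes Hadha (0.23) and Hadhb (0.29).

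Among regulators, 8 of 21 rose and 1 fell. Ppara itself had 21, 36.2 and 52.1 FPKM in high-fat livers, against 13.4, 25 and 49.5 FPKM in low-fat livers (log2 difference 0.57, adjusted p = 0.00141). Pparg, which drives fat storage genes, had 2.87, 5.85 and 15 FPKM in high-fat livers, against 0.874, 1.71 and 6.82 FPKM in low-fat livers (log2 difference 1.16, adjusted p = 9.8e-05). Both sets of arms overlapped, with 12 of 12 high-fat libraries above the low-fat mean of their time for Ppara and 10 of 12 for Pparg. Foxo3 rose by 0.73, Nr1i3, the xenobiotic receptor CAR, by 1.04, and Rxra, the partner of both PPARs, by 0.26. Lpin1, a phosphatidate phosphatase that also acts as a coactivator, fell by 0.82. Srebf1 (-0.032), Mlxipl (0.0095) and Ppargc1a (-0.099) did not pass.

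Of 21 lipid droplet genes 9 rose, 1 fell and 11 did not pass, with a median of 0.281, and 14 of the 21 were above 0. Fitm1 and Fitm2, membrane proteins needed to form droplets, rose by 1.32 and 0.84. Fitm2 had 5.54, 12.2 and 19.2 FPKM in high-fat livers, against 3.37, 5.19 and 11.5 FPKM in low-fat livers. Plin2, the main droplet coat protein of hepatocytes (chromosome 4, 86648386 to 86670060), had 172, 278 and 422 FPKM in high-fat livers, against 96.3, 189 and 399 FPKM in low-fat livers (log2 difference 0.54, adjusted p = 0.0128). Plin4 rose by 1.04, and the droplet fusion genes Cidea and Cidec by 1.49 and 1.38. Cidea was at 0.0919 to 15.6 FPKM in high-fat livers and at no more than 0.0971 FPKM in low-fat livers. G0s2, an inhibitor of the lipase ATGL, rose by 1.25, and Abhd5, the activator of that lipase, fell by 0.40. The ATGL gene itself, Pnpla2, differed by -0.14 and did not pass.

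In fatty acid uptake, 6 of 16 genes rose and 2 fell. Cd36, the fatty acid translocase, had 6.32, 18.7 and 45.1 FPKM in high-fat livers, against 1.44, 6.49 and 23 FPKM in low-fat livers (log2 difference 1.37, adjusted p = 0.000576). 8 of 12 high-fat libraries lay above the low-fat mean of their time. The acyl-CoA synthetase gene Acsl1 rose by 0.61, and the medium-chain synthetase genes Acsm3 and Acsm5 by 0.91 and 0.40. Lpl, lipoprotein lipase, fell by 0.85 together with Fabp5. In triglyceride synthesis 2 of 11 rose, Mogat1 by 1.20 and Gpam, the first acyltransferase, by 0.76, and only Lpin1 fell. The diacylglycerol acyltransferase genes Dgat1 and Dgat2 differed by -0.15 and -0.085 and did not pass. Among desaturases and elongases, Fads2 rose by 0.72 and Fads6 by 0.88, and Elovl1 and Tecr fell by 0.42 and 0.38, out of 13 tested.

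Fatty acid synthesis genes were lower in high-fat offspring: 12 of 19 fell, none rose and 7 did not pass, with a median log2 difference of -0.653. The count was also 12 without ZT6 and with length and GC trends removed. G6pdx, which makes NADPH, had 0.739, 0.925 and 1.33 FPKM in high-fat livers, against 1.3, 3.38 and 9.64 FPKM in low-fat livers. The arms touched at their edges, and the log2 difference was -1.21 (SE 0.156, adjusted p = 1.19e-06). Pnpla3, a triglyceride hydrolase gene of this programme, had 0.0675, 0.286 and 1.18 FPKM in high-fat livers, against 0.381, 4.55 and 23.5 FPKM in low-fat livers (log2 difference -1.81, adjusted p = 0.000218). Acss2, which activates acetate, had 29.1, 48.7 and 117 FPKM in high-fat livers, against 48.6, 92.6 and 175 FPKM in low-fat livers (log2 difference -0.94, adjusted p = 0.00115).

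The enzymes of the chain itself fell together. Acetyl-CoA carboxylases Acaca and Acacb fell by 0.65 and 0.89, fatty acid synthase Fasn by 0.84, the elongase Elovl6 by 1.03, and the desaturase Scd1 by 1.32. Scd1 had 206, 1158 and 2655 FPKM in high-fat livers, against 1825, 2531 and 4665 FPKM in low-fat livers. Enzymes that feed the chain also fell: Pklr, liver pyruvate kinase, by 0.89, ketohexokinase Khk by 0.59, malic enzyme Me1 by 0.77 and Pgd of the pentose phosphate pathway by 0.42. Acly, the ATP citrate lyase gene, differed by -0.46 and did not pass. In the wider carbohydrate group, 2 of 24 rose and 2 fell (8.33% each), beside 11.5% and 11.7% of all genes. Pck1, the key enzyme of gluconeogenesis, had 271, 705 and 939 FPKM in high-fat livers and 92.4, 409 and 716 FPKM in low-fat livers, and rose by 0.93 (adjusted p = 0.00826). Pcx, pyruvate carboxylase, rose by 0.40. Gpi1, an isomerase of glycolysis, fell by 0.80 (adjusted p = 7.01e-06), and Slc37a4, the glucose 6-phosphate transporter, by 0.47.

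**Figure D2:**
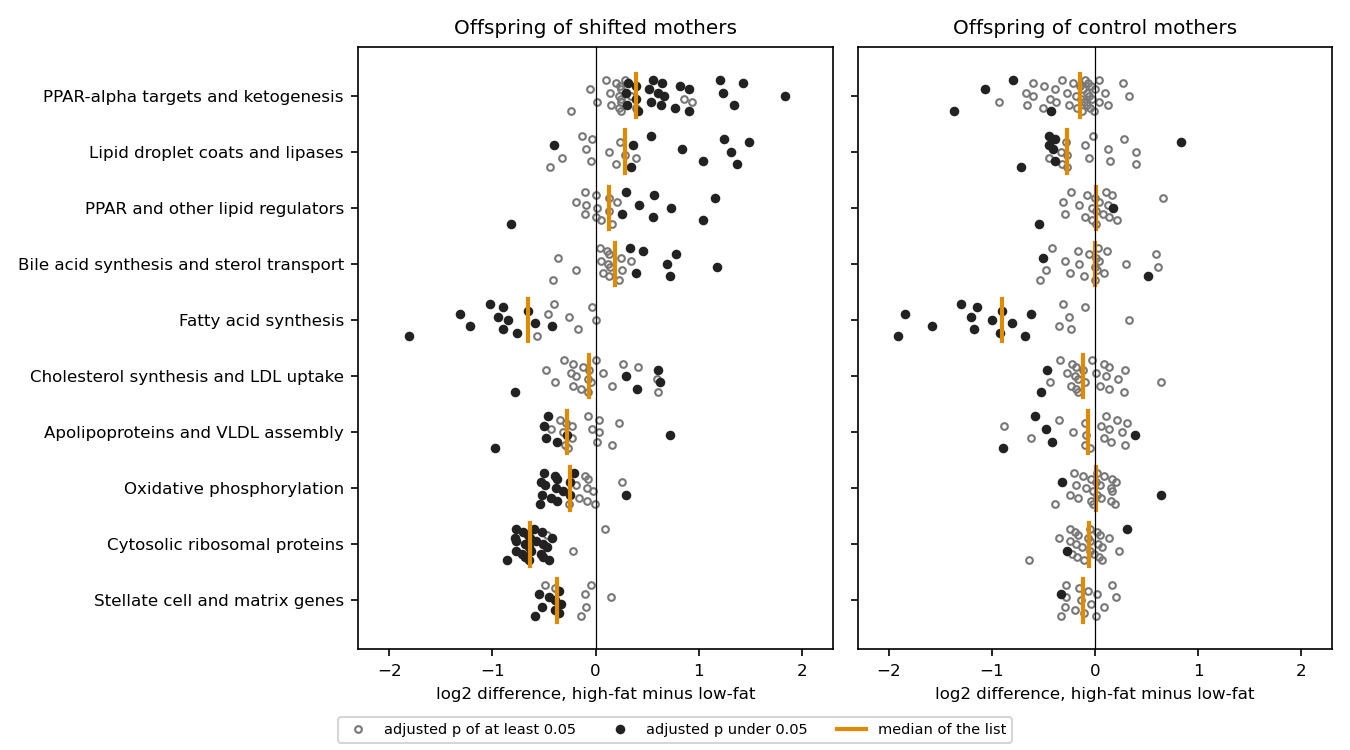
High-fat minus low-fat log2 difference of each member of 10 gene groups, with offspring of shifted mothers in the left panel and offspring of control mothers in the right panel, where filled points have an adjusted p under 0.05 and orange marks show the group medians. PPAR-alpha targets have a median of 0.393 in shifted and -0.148 in control offspring, lipid droplet genes 0.281 and -0.268, and fatty acid synthesis genes -0.653 and -0.898.

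Cholesterol synthesis genes showed little change in the average over times. Of 25, 4 rose, 1 fell and 20 did not pass. Srebf2, the master regulator, had 4.86, 6.31 and 8.84 FPKM in high-fat livers, against 2.38, 4.26 and 11 FPKM in low-fat livers (log2 difference 0.41). Hsd17b7 rose by 0.60 and Stard4, a sterol carrier, by 0.62, while Fdps fell by 0.78. The counts depended on the times used: without ZT6, 6 genes of the group fell, and with trends of length and GC removed 2 rose. The additive model also left 2 rises, as did the fit without shifted low-fat ZT0 replicate 2, while that without shifted low-fat ZT18 replicate 3 gave 7. In bile acid and sterol transport, 7 of 22 rose and none fell. The canalicular phospholipid pump Abcb4 had 43.1, 57.7 and 76.8 FPKM in high-fat livers, against 24.1, 30.8 and 91.4 FPKM in low-fat livers (log2 difference 0.70, adjusted p = 1.65e-05). The export pumps Abcc2 and Abcc3 rose by 0.72 and 1.17, and Slco1b2, an uptake carrier, by 0.78. Cyp7a1, the first enzyme of bile acid synthesis, differed by 0.25 and did not pass.

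Apolipoprotein and VLDL genes moved unequally. Apob, a very long transcript and the structural protein of VLDL, rose by 0.72, and 6 of 22 genes fell. Apoa1, the main protein of HDL, had 5085, 7993 and 10775 FPKM in high-fat livers, against 5553, 12019 and 18974 FPKM in low-fat livers (log2 difference -0.50, adjusted p = 0.00415). Apoc3, an inhibitor of triglyceride clearance, fell by 0.48, Tm6sf2 by 0.47 and Pltp, the phospholipid transfer protein, by 0.97. With trends of length and GC removed 2 genes of the group fell instead of 6, and without ZT6 10 fell. Leaving out single libraries gave 4 to 10.

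Ribosomal protein genes fell almost as a block. Of 26, 23 fell and none rose, with a median log2 difference of -0.632. Of all 77 genes tested with ribosomal protein symbols, 73 fell and 0 rose. Rpl23 had 144, 178 and 234 FPKM in high-fat livers, against 182, 306 and 527 FPKM in low-fat livers (log2 difference -0.68, adjusted p = 1.25e-06). These genes have many processed pseudogenes, so the assignment of their reads is uncertain. Subunits of the respiratory chain and ATP synthase fell as well, 14 of 25 with 1 rise and a median of -0.251. Atp5o of ATP synthase had 138, 171 and 276 FPKM in high-fat livers, against 137, 267 and 656 FPKM in low-fat livers (log2 difference -0.53, adjusted p = 6.72e-05). Cox4i1 and Cox6c of cytochrome oxidase fell by 0.49 and 0.54, and Ndufs1 of complex I rose by 0.29.

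Transcript length moved with these groups. Across the genes with a GENCODE model, the Spearman correlation of the log2 difference with transcript length was 0.429 and that with GC content -0.231. These correlations are across genes, which are not independent replicates. Genes that rose had a median length of 4441 nt, genes that fell 1942 nt and genes that did not pass 3205 nt. Of 585 genes under 1000 nt, 5.81% rose and 35.9% fell, and of 494 genes over 8000 nt 31% rose and 2.02% fell. The 26 ribosomal protein genes had a median length of 1124 nt and the 25 respiratory genes 1791 nt. With the trends of length and GC removed, 23 of the 26 ribosomal genes and 11 of the 25 respiratory genes still fell, with medians of -0.478 and -0.176. Over all 10464 genes with a model 1068 fell in that refit, and 1539 of the 2431 calls were kept. The cause of the length trend and the part of RNA quality in any of these falls were not tested.

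The trend could be read in single libraries, as the correlation across genes between length and a gene's deviation from the mean of all libraries. It was 0.459 to 0.506 in high-fat and -0.169 to 0.468 in low-fat livers at ZT0, and 0.362 to 0.428 in high-fat and 0.356 to 0.43 in low-fat livers at ZT6. At ZT12 it was 0.229 to 0.327 in high-fat and -0.387 to -0.0882 in low-fat livers, and at ZT18 -0.194 to 0.371 in high-fat and -0.532 to 0.0566 in low-fat livers. The mean log2 level of the ribosomal proteins was 7.35 to 7.43 in high-fat and 7.91 to 8.37 in low-fat livers at ZT0, and 7.58 to 7.76 in high-fat and 7.5 to 7.73 in low-fat livers at ZT6. At ZT12 it was 7.59 to 7.74 in high-fat and 8.18 to 8.68 in low-fat livers, and at ZT18 7.48 to 8.06 in high-fat and 8.37 to 9.34 in low-fat livers. The low-fat libraries of ZT6 were the only low-fat group of shifted offspring that lay wholly within the range of the high-fat libraries in both measures. A single library of another time, low-fat ZT0 replicate 3, also lay within that range in both, at 0.468 and 7.91.

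**Figure D3:**
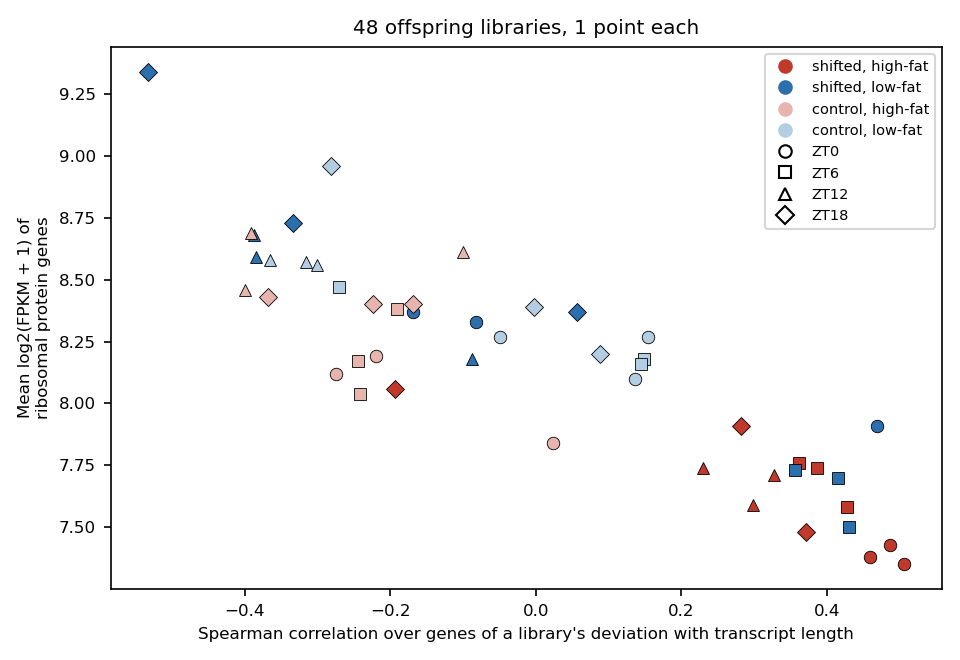
Each of the 48 offspring libraries by the Spearman correlation across genes of its deviation with transcript length (x axis) and by its mean log2 ribosomal protein level (y axis). Most high-fat libraries of shifted mothers lie at the right and bottom with the 3 low-fat ZT6 libraries, whose correlations are 0.356 to 0.43 and whose ribosomal means are 7.5 to 7.73, but high-fat ZT18 replicate 2 lies to the left, at -0.194 and 8.06. Low-fat ZT0 replicate 3 of shifted mothers also lies to the right, at 0.468 and 7.91.

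Growth hormone gives mouse liver its sex-biased genes. In these male livers, 1 of 27 male-biased genes rose and 4 fell (14.8%), beside 11.7% of all genes. Of 24 female-biased genes 10 passed the filter on low values, of which 4 rose, and without that filter 5 rose and 1 fell, with a median of 0.00938. Serpina12 fell by 1.13, Mup20, a major urinary protein with many relatives of similar sequence, by 0.57, and C8b by 0.60, while Cyp2b9, Acot3, Abcd2 and Tox rose by 1.82, 1.24, 0.55 and 0.40. Without ZT6, 9 of the male-biased genes fell. Among drug-metabolizing enzymes, 8 of 34 rose and 8 fell. Aox3, an aldehyde oxidase, had 97.1, 142 and 211 FPKM in high-fat livers, against 14.6, 65.5 and 143 FPKM in low-fat livers (log2 difference 1.26, adjusted p = 4.94e-07), and Aox1 rose by 0.99. Cyp2c40 had 7.77, 11 and 16.3 FPKM in high-fat livers, against 9.77, 27.6 and 43.1 FPKM in low-fat livers (log2 difference -1.06). The related Cyp2c67, Cyp2c68, Cyp2c69 and Cyp2c70 fell by 0.59 to 0.80, and Cyp2c38 rose by 0.73, within a cluster of similar genes that can share reads. The number of falls in this group was 5 in the values as deposited, in the additive model and with length and GC trends removed.

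Among glutathione genes 5 of 30 rose and 7 fell. The transferases Gstp1 and Gstp2, near-identical neighbours, fell by 0.74 and 1.0. Gstm1, Gstm2 and Gstm6 fell by 0.44, 0.49 and 0.56. Gclc and Gclm, the subunits of the enzyme that starts glutathione synthesis, rose by 0.45 and 0.24. The rises numbered 8 or 9 under some alternatives. In amino acid catabolism 7 of 33 rose and 1 fell. Tdo2, which starts tryptophan breakdown, rose by 0.76, with 591, 723 and 860 FPKM in high-fat livers and 134, 454 and 767 FPKM in low-fat livers. Kmo of the same route rose by 0.40 and Oat, the ornithine aminotransferase, by 0.78. In one-carbon metabolism 6 of 20 rose and 1 fell, with Sardh, Chdh and Mat1a, the main hepatic S-adenosylmethionine synthetase, up by 0.44, 0.43 and 0.40. That count was 10 in the values as deposited and without the 5 libraries of low correlation.

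Insulin signalling and hepatokine genes were split, 4 of 27 up and 4 down (14.8% each). Igfbp2, which binds insulin-like growth factors, had 43.7, 139 and 224 FPKM in high-fat livers, against 148, 274 and 574 FPKM in low-fat livers (log2 difference -1.16, adjusted p = 4.07e-05). All 12 high-fat libraries lay below the low-fat mean of their time. Ahsg and Fetub, the fetuins, fell by 0.45 and 0.46. Inhbe and Tsku, both secreted by hepatocytes, rose by 0.91 and 1.0. Among iron and heme genes 4 of 21 rose and 2 fell, with a median of 0.0146. Tfrc, the transferrin receptor, rose by 0.71, Cpox of heme synthesis by 0.58, the iron exporter Slc40a1 by 0.43 and Tfr2 by 0.20, while Hamp2, a hepcidin gene, fell by 1.05 and Urod of heme synthesis by 0.21. No gene of the group fell in the values as deposited, in the additive model or with length and GC trends removed. Among NAD and vitamin A genes, Aldh1a1 rose by 0.78 and Nampt, the rate-limiting enzyme of NAD salvage, by 0.46. In the core clock 2 of 19 rose (10.5%), Rora by 0.42 and Nr1d2 by 0.40, and neither passed with length and GC trends removed. Leaving out single libraries gave 0 to 4 rises, with 0 without shifted low-fat ZT0 replicate 1. That library had 0.427 FPKM of Rora, against 3.86 and 7.48 in replicates 2 and 3 of its group. Its Nr1d2 level was 0.277 FPKM, against 1.93 and 2.35. Clock was among the 17 that did not pass. Atf6 (0.24) was the 1 gene of 24 in the unfolded protein response that passed, and heat shock genes had 2 falls in 14 (14.3%), Hspe1 and the cold-inducible Rbm3. Among immediate early genes Jund and Junb rose, out of 12 (16.7%), and among cell cycle genes Mcm2 and Mcm4, out of 16 (12.5%). Over all genes 11.5% rose and 11.7% fell, so the counts of the clock, heat shock and cell cycle groups were near the share of all genes.

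Of 20 listed inflammatory and lipid-associated macrophage genes 11 passed the filter on low values, of which none rose and 3 fell: Cd9 by 1.20, with 3.27, 6.55 and 12.1 FPKM in high-fat livers and 7.93, 15.9 and 31.4 FPKM in low-fat livers, Cd63 by 0.92 and Cd14 by 0.41. In the interferon response 1 of 24 rose, Rsad2 by 0.51, and 3 fell, the largest being Bst2 by 0.81 with 100 to 185 FPKM in high-fat and 159 to 442 FPKM in low-fat livers. Of 22 acute phase genes 3 rose, Saa2, Saa4 and Orm3, and 4 fell, Orm1, Apcs, Fgb and Serpina3k. With a pseudocount of 0.1, without a filter and in the additive model 1 rose, and leaving out single libraries gave 1 to 3 rises. Orm1 had 370, 562 and 1089 FPKM in high-fat livers, against 660, 1165 and 2549 FPKM in low-fat livers (log2 difference -1.01, adjusted p = 3.03e-06). Of 16 stellate cell and matrix genes none rose and 9 fell, among them Timp2 by 0.45, Bgn by 0.39, Col1a2 by 0.52 and Col3a1 by 0.59. That count was 2 in the values as deposited and 3 without ZT6, and 5 without shifted low-fat ZT0 replicate 1. In bulk liver, fewer cells of a type and less RNA per cell cannot be told apart.

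Markers of the other cell types stand here beside the 11.7% of all genes that fell, and the lists are short. None of 12 Kupffer cell and macrophage markers passed, and their sum was 92 to 217 FPKM in high-fat and 97.5 to 328 FPKM in low-fat livers. Of 10 endothelial markers 3 fell (30%), Egfl7, Lyve1 and Pecam1, with a sum of 42.4 to 83.6 FPKM in high-fat and 50.6 to 95.3 FPKM in low-fat livers. Of 10 stellate cell markers 2 fell (20%), Des and Pdgfrb, and Rgs5 rose, with a sum of 68.7 to 109 FPKM in high-fat and 61.8 to 164 FPKM in low-fat livers. None of these fell with a pseudocount of 0.1 or in the additive model, 5 did in the 24 libraries alone and with length and GC trends removed, and leaving out single libraries gave 0 to 2. Of 7 cholangiocyte markers 2 fell (28.6%), Krt7 and Krt19, with a sum of 17.6 to 40.6 FPKM in high-fat and 25.1 to 72.6 FPKM in low-fat livers. Of the 10 hepatocyte markers 5 fell, Alb, Ahsg, Apoa1, Fgb and Ttr, and 3 did in the values as deposited. Alb had 18903 to 33119 FPKM in high-fat and 24802 to 50282 FPKM in low-fat livers. T, NK and B cell markers (4 tested), neutrophil markers (2) and pancreatic acinar markers (2) had no call, and Alas2 of the erythroid markers rose by 0.43. Of 12 pericentral genes Oat, Lgr5 and Lect2 rose, and of 12 periportal genes Pck1 and Uroc1 rose and Cdh1 fell. The part of these markers in the changes of the other groups was not tested.

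The diet difference was not the same at all times of day. Taken alone, ZT0 gave 752 genes (6.92%; 442 up and 310 down), ZT12 648 (5.97%) and ZT18 885 (8.15%; 267 up and 618 down), but ZT6 gave 5 (0.046%), with 713 at an unadjusted p under 0.05. The 5 all fell: Lepr by 1.89, Ppfibp1 by 0.89, Cln6 by 0.89, Rhoq by 0.70 and Cables1 by 0.58. Of the 2518 genes called over all times, 97.5% had the same sign at ZT0, 99.4% at ZT12 and 99.6% at ZT18, against 56.4% at ZT6, although each time enters the average. An F test of the diet difference across the 4 times called 17 genes (0.157%), with 1651 at an unadjusted p under 0.05, and no gene when ZT6 was left out. That count is fragile. It was 0 without shifted high-fat ZT6 replicate 1 and 636 without shifted low-fat ZT0 replicate 3.

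Serpina1e, a male-biased serpin with close paralogs, was among the 17 (adjusted p = 0.0059), with log2 differences of -1.70, 2.06, -2.16 and 0.12 at ZT0, ZT6, ZT12 and ZT18. It averaged 2630, 3400, 1580 and 4060 FPKM in high-fat livers, against 8470, 809, 6400 and 3270 FPKM in low-fat livers. Slc4a4, a bicarbonate cotransporter, differed by 1.33, -0.77, 1.19 and 1.03 (adjusted p = 0.0059). Tecr, the last enzyme of fatty acid elongation, differed by -0.74, 0.37, -0.45 and -0.68, and Cyp2c44 by -0.68, 0.30, -0.90 and 0.15. In these 4 genes the sign at ZT6 was the opposite of that at ZT0 and ZT12.

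ZT6 stood apart in whole groups. Setting ZT6 against the mean of the other times, a contrast chosen after these values were seen, called 545 genes (5.02%). The cholesterol synthesis group had a median difference of -0.806 at ZT0, 0.961 at ZT6, -0.103 at ZT12 and then 0.0418 at ZT18. At ZT6 all 25 were above 0 and at ZT0 2 were. In that contrast 10 of the 25 were higher at ZT6, among them Ebp, Fdft1, Fdps, Insig1, Lss, Nsdhl and Tm7sf2. Fdps averaged 115, 215, 178 and 145 FPKM in high-fat livers at the 4 times, against 426, 112, 291 and 366 FPKM in low-fat livers, so that ZT6 had the highest high-fat mean and the lowest low-fat mean. Male-biased genes had medians of -0.342, 0.731, -0.642 and -0.143, with 26 of 27 above 0 at ZT6. PPAR-alpha targets had medians of 0.662, 0.0892, 0.686 and 0.396, fatty acid synthesis genes -1.11, -0.133, -0.435 and -1.08, and ribosomal proteins -0.845, 0.057, -0.739 and -0.974.

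In several of the leading genes the low-fat mean was highest at ZT6, and for Cd36 and Aldh3a2 the high-fat mean was also lowest there. Cd36 averaged 26.1, 12.2, 36.3 and 21.4 FPKM in high-fat livers, against 3.19, 19.7, 4.8 and 8.22 FPKM in low-fat livers. Aldh3a2 averaged 161, 136, 220 and 140 FPKM in high-fat livers, against 38.7, 96.2, 66.4 and 44.7 FPKM in low-fat livers. Mia2 averaged 25.6, 25.8, 29.1 and 13.3 FPKM in high-fat livers, against 9.82, 29.6, 4.56 and 1.61 FPKM in low-fat livers. In low-fat livers of control mothers the means of these genes were also highest at ZT6. There Cd36 averaged 14.3, 15.7, 10.9 and 5.58 FPKM, Aldh3a2 76.8, 112, 70.1 and 68.5 FPKM, and Mia2 4.73, 10.1, 3.97 and 5.71 FPKM. The ZT6 low-fat libraries of shifted mothers also had the length trend and ribosomal level of the shifted high-fat libraries. The part of that in the ZT6 result was not tested. Whether these 3 libraries were exchanged with others was not tested either. In Fabp5, the gene of smallest adjusted p, they had 59.5, 141 and 107 FPKM, above the 20.5 FPKM of the highest high-fat library. Fabp5 was picked by a comparison that includes these libraries, so its values are no test of an exchange. Each time of each arm holds 3 libraries, of unstated origin, so a time of day and the animals taken at it cannot be told apart.

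**Figure D4:**
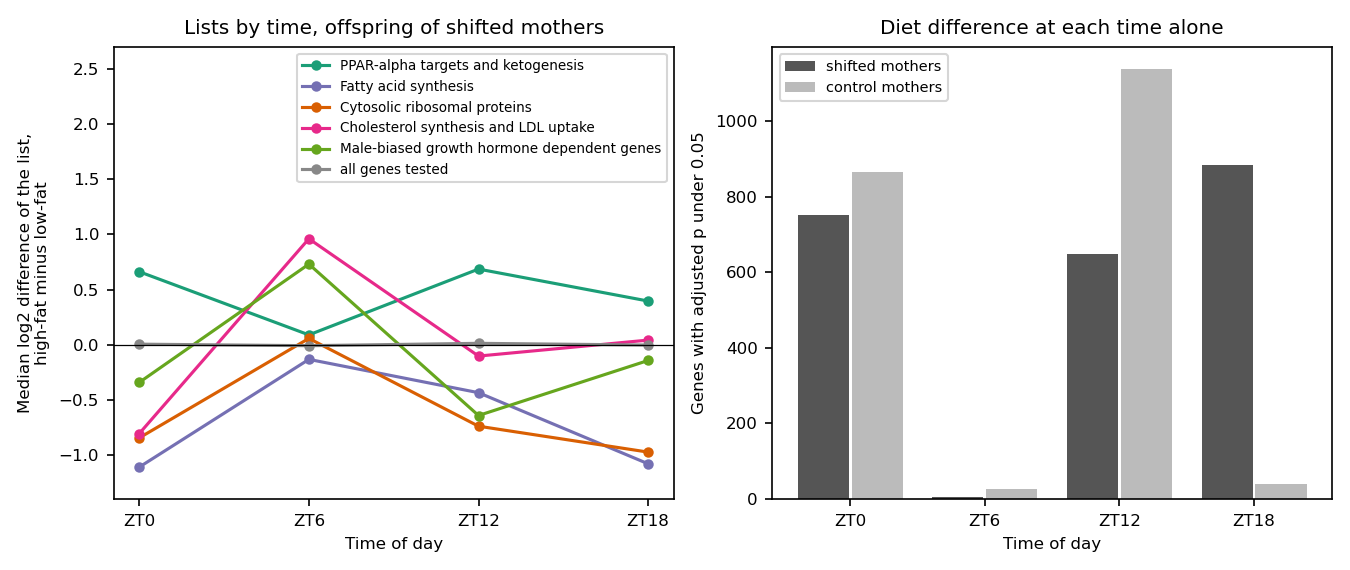
Left, median high-fat minus low-fat log2 difference of gene groups at ZT0, ZT6, ZT12 and ZT18 in offspring of shifted mothers, and right, the number of genes called at each time alone, with shifted offspring in the dark and control offspring in the light bars. Shifted offspring had 5 calls at ZT6 and 648 to 885 at the other times, and control offspring 865, 27, 1139 and 40.

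The same diets in offspring of control mothers gave 1580 genes (14.5%), 731 up (6.73%) and 849 down (7.82%). At single times, control offspring had 865 genes at ZT0 (7.97%) and 1139 at ZT12 (10.5%), but 27 at ZT6 (0.249%) and 40 at ZT18 (0.368%). The 2 diet comparisons share no library, although they share 1 scaling and 1 estimate of the spread. Of the genes called in shifted offspring, 205 were called in the same direction in control offspring and 162 in the opposite direction. With length and GC trends removed these counts were 254 and 98. The 205 genes are 8.14% of the shifted list and 13% of the control list. Over all genes tested, 6.73% rose and 7.82% fell in control offspring, and 11.5% rose and 11.7% fell in shifted offspring. The overlap in the same direction was thus near the share over all genes. A test of the difference between the 2 diet effects called 2627 genes (24.2%), 1509 with the shifted effect above the control effect (13.9%) and 1118 below (10.3%). It called 1425 of the 2518 genes of shifted offspring (56.6%). In 1422 of them the difference had the same sign as the shifted effect. These genes were selected by that effect, which is part of the difference, so such agreement was favoured in advance. With length and GC trends removed it called 1714 genes, and 1241 of the calls were kept. The split was 2774 above and 391 below in the values as deposited, and 1150 above and 1413 below with upper quartile scaling. The length trend of the diet effect ran the other way in control offspring, where its correlation with length was -0.162 and with GC content 0.357.

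The fatty acid oxidation and storage genes differed between the 2 kinds of offspring. Of 41 PPAR-alpha targets, none rose and 4 fell in control offspring, with a median of -0.148, and in 25 the shifted effect was above the control effect by the test of the difference. That count was 23 with length and GC trends removed. Aldh3a2 differed by 1.43 in shifted and 0.098 in control offspring, with a difference between the effects of 1.33 (adjusted p = 0.000186). Pex11a had log2 differences of 1.35 in shifted and -0.49 in control offspring, and Acadm of 0.63 and -0.095. Cd36 had log2 differences of 1.37 in shifted and -0.48 in control offspring, Fitm2 0.84 and -0.45, and Plin2 0.54 and -0.45. Gpam, the first enzyme of glycerolipid synthesis, rose by 0.76 in shifted offspring and fell by 1.32 in control offspring, with a difference of 2.08 (adjusted p = 0.000186). Pparg and Ppara differed by 1.16 and 0.57 in shifted and by 0.16 and 0.014 in control offspring, with differences of 1.0 and 0.56. Of the 21 lipid droplet genes 1 rose and 6 fell in control offspring.

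Fatty acid synthesis genes fell in both kinds of offspring. In control offspring 13 of 19 fell and none rose, with a median of -0.898, and the test of the difference called none of the 19. Pnpla3 fell by 1.81 in shifted and 1.84 in control offspring, G6pdx by 1.21 and 0.92, Fasn by 0.84 and 1.30, and Scd1 by 1.32 and 1.91. A difference that misses the threshold does not show that the effects are equal. Fabp5 fell in both, by 4.75 and 2.98, and the difference of -1.76 had an adjusted p of 0.0498, or 0.0529 with length and GC trends removed. Lepr fell by 1.36 and 1.17, Pck1 rose by 0.93 and 0.87, Cd9 fell by 1.20 and 1.15, and Jund rose by 0.62 in each. Scand1 rose in both, but less in shifted offspring, by 1.53 against 2.75 (difference -1.22, adjusted p = 0.006).

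Ribosomal protein and respiratory genes changed in shifted offspring. Of 26 ribosomal protein genes 1 rose and 1 fell in control offspring, with a median of -0.0603, and in 20 the shifted effect was lower by the test of the difference, or in 15 with length and GC trends removed. Of 25 respiratory genes 1 rose and 1 fell in control offspring, and in 12 the shifted effect was lower, or in 9 after that correction. The smallest adjusted p-values for the difference, 0.00015, were those of Gldc, the glycine decarboxylase, Sh3bgrl2, Prdx4, a peroxiredoxin of the endoplasmic reticulum, and Tmem64, followed by Fbxo3 and Ankrd28. Gldc rose by 0.43 in shifted and fell by 0.61 in control offspring. Prdx4 fell by 0.69 in shifted offspring, with 51.7, 60.6 and 89 FPKM in high-fat and 66.9, 110 and 197 FPKM in low-fat livers, and differed by 0.21 in control offspring.

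**Figure D5:**
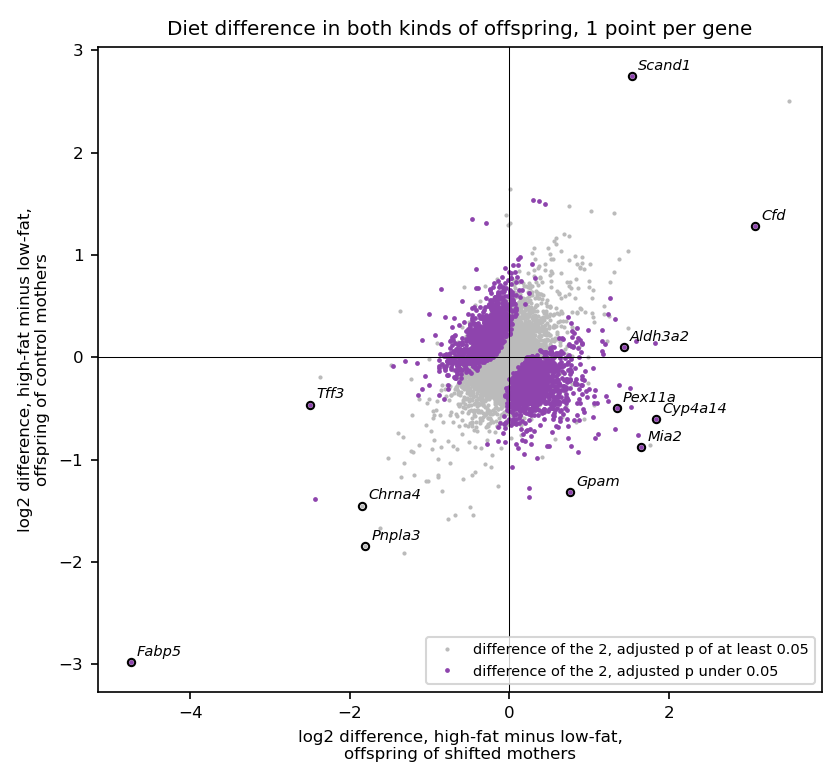
Each gene by its high-fat minus low-fat log2 difference in offspring of shifted mothers (x axis) and of control mothers (y axis), with genes in purple where the test of the difference had an adjusted p under 0.05. Fabp5 lies low in both, at -4.75 in shifted and -2.98 in control offspring, while Mia2, Gpam and Pex11a were positive in shifted and negative in control offspring.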

How the data were processed

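Liver poly(A) RNA, extracted with TRIzol, was sequenced as stranded TruSeq libraries, per the labels' protocols. The authors deposited FPKM per gene, 1 table per arm, made with TopHat2 2.1.1 and Cufflinks 2.2.1 on mm10, per the submitters' processing notes, and no counts, so depth and counting error are unknown. Of 24883 table entries, 817 whose 280 symbols stood on several entries were left out. The 48 columns of mothers and fetuses were not used here. The 48 offspring libraries were scaled by median of ratios, and log2(FPKM + 1) was fitted with limma 3.58.1 in R 4.3.3, using trended empirical Bayes and a separate mean for each arm at each time, for genes at FPKM of 1 or more in at least 3 libraries. Contrasts averaged the 4 times equally, p-values were adjusted by Benjamini-Hochberg over all 10860 genes, and 0.05 was the threshold. The fit was tested on simulated data. The libraries compared, the gene lists and the markers were chosen with earlier results of these data known. Genes named by rule were the 8 largest rises and falls, the 6 of smallest p, the 3 of smallest p in each list, and up to 6 and 4 of smallest p for the difference between offspring and between times. Some genes that the rule or the lists name are not reported here, but the counts and medians include them. Other genes named from the lists, and the 23 genes of separate arms, were picked after their values were seen. A library lay on the side of a change when it was above or below the low-fat mean of its time. Alternatives were a pseudocount of 0.1, no filter, values as deposited, upper quartile scaling, a replicate block, the 24 libraries of shifted mothers alone, an additive model, removal of length and GC trends (splines of 4 degrees of freedom per library on the longest GENCODE M21 transcript), and each library left out. Leaving out ZT6 or the 5 libraries of low correlation was chosen after seeing the data, as were the length and GC correction of the other comparisons and the 24-library fit of diet by time. Figures were drawn with Python 3.11.15.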

Additional observations from a re-analysis of the deposited data

Results flagged for a closer look

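The diet effect differed between shifted and control offspring in 2627 genes by the limma test of the difference itself, and 81 of the genes named by rule and reported here were among them. Values are the shifted diet effect minus the control diet effect on the log2 scale, each with a Benjamini-Hochberg adjusted p under 0.05. The 4 arms were deposited as separate tables, and the length trend of the diet effect had opposite signs in the 2 kinds of offspring. With length and GC trends removed, 54 of the 79 genes that could be refitted kept the call and 25 lost it. Those that lost it were Aldh1a1, Aox1, Aox3, Atf6, Clock, Cyp4a14, Hsd17b7, Inhbe, Kmo, Mcm4, Rgs5, Rora, Sel1l, Slc40a1, Tfrc and Tox among the higher ones, and Ahsg, Cd4, Cox4i1, Elovl1, Fabp5, Gstp1, Pdzk1ip1, Tecr and Tff3 among the lower ones. Cyp2c44 and Tgoln2 could not be refitted. The part of the separate tables was not tested.

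The shifted effect was the higher in 52 named genes. In fatty acid, lipid droplet and triglyceride genes and their regulators the values were Cyp4a14 2.44, Gpam 2.08, Acss3 2.01, Cd36 1.85, Pex11a 1.84, Acot3 1.67, Aldh3a2 1.33, Fitm2 1.29, Fads6 1.19, Mogat1 1.07, Pparg 1.0, Acadm 0.73, Foxo3 0.72 and Ppara 0.56. In transport, bile, sterol and lipoprotein genes they were Abcc3 1.14, Slc4a4 1.01, Abcc2 0.97, Apob 0.93, Hsd17b7 0.82, Abcb4 0.70 and Srebf2 0.57. In amino acid, one-carbon, drug, iron and vitamin metabolism they were Cyp2b9 1.69, Gldc 1.04, Cpox 1.03, Tdo2 0.98, Tfrc 0.93, Chdh 0.80, Aox1 0.72, Aox3 0.68, Nampt 0.66, Pcx 0.62, Slc40a1 0.58, Aldh1a1 0.53 and Kmo 0.34. In the other genes they were Mia2 2.52, Apoo-ps 2.37, Tgoln2 1.82, Cfd 1.79, Sh3bgrl2 1.16, Fbxo3 1.15, Ankrd28 0.98, Tmem64 0.91, Rsad2 0.78, Inhbe 0.77, Fam107b 0.77, Rgs5 0.69, Clock 0.69, Rora 0.62, Sel1l 0.48, Tox 0.48, Mcm4 0.42 and Atf6 0.36.

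The shifted effect was the lower in 29 named genes. In ribosomal and respiratory genes the values were Atp5o -0.62, Rpl23 -0.56, Cox6c -0.52 and Cox4i1 -0.51. In secreted, transport and lipoprotein genes of hepatocytes they were Serpina1e -1.28, Igfbp2 -1.10, Apoa1 -0.82, Apoc3 -0.74, Orm1 -0.74, Ttr -0.54 and Ahsg -0.42. In detoxification and lipid genes they were Fabp5 -1.76, Gstp2 -1.42, Gstp1 -0.90, Prdx4 -0.90, Cyp2c40 -0.88, Tecr -0.49, Gm2a -0.41, Cyp2c44 -0.35 and Elovl1 -0.32. In markers of other cells and the remaining genes they were Tff3 -2.04, Scand1 -1.22, Pdzk1ip1 -1.05, Egfl7 -0.68, Krt7 -0.62, Bgn -0.48, Des -0.41, Cd4 -0.40 and Pecam1 -0.35.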

How the results depend on the processing

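Depth is unknown, so no limit from counting can be given. The number of genes called for diet in shifted offspring stayed within 1.5 times the reported 2518 under every alternative run: 2199 with a pseudocount of 0.1, 2537 without a filter, 2402 as deposited, 2451 with upper quartile scaling, 3182 in the 24 libraries alone, 2098 in the additive model, 2017 with length and GC trends removed, 3667 without 5 libraries and 2818 without ZT6. The share of calls kept in the same direction was lowest with length and GC trends removed (63.3%) and as deposited (78.8%), and 83.1% to 97.8% elsewhere. Leaving out single libraries gave 2026 to 3138. For the difference between shifted and control offspring it gave 2119 to 3345, and 1714 genes were called with length and GC trends removed. For control offspring it gave 1018 without control high-fat ZT12 replicate 2 and 2646 without control high-fat ZT12 replicate 1, and 879 were called without ZT6. For diet by time it gave 0 to 636, with 19 of 24 libraries moving the 17 genes by over 1.5 times. That count was 4 with a pseudocount of 0.1, 44 without a filter, 8 with upper quartile scaling, 27 in the 24 libraries alone, 2 with length and GC trends removed, 42 without the 5 libraries and 0 without ZT6. The cause was not tested. Scaling moved the median log2 difference of all genes to 0.0661 as deposited and -0.0222 with upper quartile scaling, from 0.00981. Of the genes named by rule, Lyz2 (-0.29, adjusted p = 0.316) was at 0.0023 without ZT6 and Nkg7 (-0.16, adjusted p = 0.367) at 0.068 with length and GC trends removed, none of these past the threshold.

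Replicate numbers were not found to pair the libraries. Deviations of libraries with the same number correlated between -0.257 and 0.195 over 12 pairs, over 0.1 in 2, and 2 of 12 libraries correlated best with their own number. With the replicate number as a block, 2498 genes were called for diet in shifted offspring, 2627 for the difference between offspring, 1587 in control offspring and 20 for diet by time. Of 229 results on named genes, 3 lost their call under the block. Other settings cost more of these calls: 25 with a pseudocount of 0.1, 24 as deposited, 19 without a filter and 8 with upper quartile scaling. Of 224 results 35 lost it with length and GC trends removed, and of 141 results 15 in the additive model. Of 228 results 16 lost it without ZT6 and 11 without the 5 libraries. In the 24 libraries alone, 1 of 142 did.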

Other observations

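Libraries differed in how closely they agreed within a group of 3. The median SD of a gene over the 3 libraries, on the log2 scale, was 0.0816, 0.0925, 0.0945 and 0.149 in shifted high-fat livers at ZT0, ZT6, ZT12 and ZT18, against 0.256, 0.147, 0.103 and 0.268 in shifted low-fat livers. High-fat livers of shifted mothers had the lower value at each time. In control offspring it was 0.374, 0.126, 0.289 and 0.11 in high-fat livers, against 0.192, 0.136, 0.114 and 0.167 in low-fat livers. The limma fit uses 1 variance per gene over all arms, so these differences are not in the standard errors.

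Of the 2627 genes whose diet effect differed between shifted and control offspring, 533 were called in neither kind of offspring alone. The share of genes over 8000 nt that rose with the high-fat diet in shifted offspring was 31%, and the median difference of these genes was 0.172 in shifted and -0.0805 in control offspring.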
